A study of Mus musculus with 43 samples.

Results

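Glycolysis and the transport of glucose and lactate were followed through 31 genes, chosen by name as the transporters, the enzymes from hexokinase to lactate dehydrogenase, and the kinases that set the pace of the pathway or the fate of pyruvate. All 31 were present once in each of the 5 deposited tables, out of 38983 genes that the tables share, and no member had a value of 0 in any of the 43 mouse libraries. They comprise 2 glucose transporters, 6 genes from hexokinase to phosphofructokinase, 10 from aldolase to pyruvate kinase, the mutase Bpgm, 4 genes of lactate formation and transport, 4 pyruvate dehydrogenase kinases and 4 phosphofructo-2-kinases.

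Glycolysis splits glucose into pyruvate in the cytosol, and lactate dehydrogenase turns pyruvate into lactate, which monocarboxylate transporters carry across the plasma membrane. Pyruvate dehydrogenase kinases hold back the entry of pyruvate into mitochondrial oxidation, and phosphofructo-2-kinases make or remove the sugar bisphosphate that drives phosphofructokinase. Many steps are served by several paralogs, and the switch to pluripotency is known for a shift towards glycolysis. Low oxygen and Myc are both known activators of this gene set.

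Poly(A) RNA was sequenced while mouse embryonic fibroblasts (MEF) carrying a doxycycline-inducible cassette of Oct4, Klf4, Sox2 and Myc were turned into induced pluripotent stem cells (iPSC). The Mbd3f/- system has 1 floxed and 1 null allele of Mbd3, and the Gatad2a-/- system lacks Gatad2a; both genes encode subunits of the chromatin complex NuRD, and these 2 systems are called depleted here. They were sampled as MEF, on each of days 1 to 8 and as an established iPSC line. The wild-type systems WT-1 and WT-2, the second of which shares its genetic background with Gatad2a-/-, were sampled as MEF, on days 2, 4, 6 and 8 and as iPSC. Embryonic stem cells (ES) came from an Mbd3f/- line and from the wild-type line V6.5, listed with WT-1. Doxycycline was first given in serum and LIF, with oxygen held at 5%. On day 3.5 the serum was replaced and the 2 inhibitors known as 2i, which block MEK and GSK3, were added; the growth protocol dates 2i to 48 hours instead. The iPSC lines had been passaged at least 3 times and, like ES, were collected from medium with 2i and LIF. From day 3 on, and for iPSC and ES, the cells sat on irradiated human fibroblasts, whose contribution to the values was not tested. Day, medium and feeder layer therefore cannot be told apart.

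Replication is over systems, because every stage of a system is a single library, and the labels do not say which libraries came from separate cultures. Course libraries held between 12266 and 16896 genes with FPKM values of 1 or more. Depth per library is unknown, since whole reads cannot be read back from FPKM. Mbd3 stood at 36.3 to 96.5 FPKM in the Mbd3f/- libraries, against 75.3 to 117 FPKM in WT-1, and Gatad2a at 8.59 to 14.7 FPKM in Gatad2a-/-, against 9.17 to 38.5 FPKM in WT-2. Neither targeted gene was listed at 0 in its own system. Fibroblast markers were called lower and pluripotency markers higher in iPSC than in MEF for 10 of 10 and 9 of 9 genes. The 7 macrophage markers summed to 3886 to 8041 FPKM in WT-2 from MEF to day 8, against 7.12 to 16.3 FPKM at the same stages of WT-1. Between tables, 3 members cannot be compared in level. Near-identical copies took 72.7 to 80.3% of the summed FPKM of Eno1 and its copy Gm5506 in the Mbd3f/- table and 15.0 to 17.9% in the Gatad2a-/- table. For Pgk1 and Pgk1-rs7 the copy took 70.1 to 75.6% and 23.3 to 25% in the same tables, and for Pgam1 and Pgam1-ps2 it took 54.7 to 65.6% and 43.9 to 46.0%. Adding each copy to its gene changed none of the members' calls.

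The end points of the courses were compared first, with iPSC set against MEF in all 4 systems. In iPSC, 8 of 31 members were higher and 6 were lower than in MEF, while 17 did not pass the threshold (limma on log2(FPKM + 1), adjusted p under 0.05). Of all 20305 genes tested, 29.0% were higher and 23.9% were lower, so the members' shares lay near the background in both directions. The members' median log2 change was 0.17, against 0.14 over all genes tested. In bulk libraries, a change in the share of a cell type and a change in RNA per cell cannot be told apart. Slc2a3, Hk2, Pfkp, Ldhb and Slc16a1 were higher in iPSC, and Eno2, Slc16a3, Pfkfb3, Pfkfb4, Pdk2 and Pdk3 were lower. The map of changes from MEF shows every member in every course library.

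**Figure D1:**
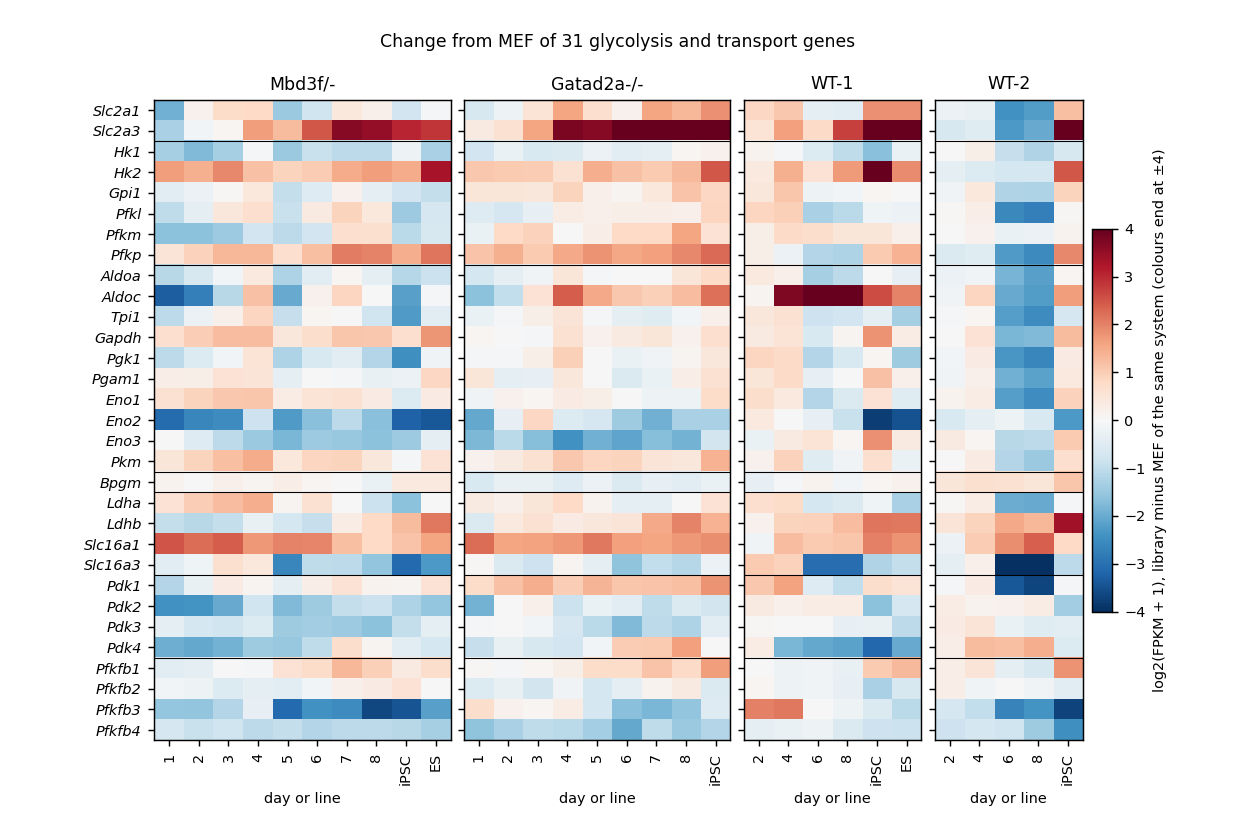
Each cell gives log2(FPKM + 1) in 1 library minus MEF of the same system, with the 31 members down the page by role and the libraries of each system along the x axis in order of time; red is higher than MEF, blue is lower, and colours end at 4 in either direction. The Slc2a3 row turns red in all 4 iPSC columns, and the WT-2 columns of days 6 and 8 are blue for most members from Slc2a1 to Ldha.

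Both glucose transporters were called higher, Slc2a3 by far the more, while the call of Slc2a1 was fragile. Slc2a3 (ENSMUSG00000003153, chromosome 6 at 122727809 to 122801640, minus strand, GRCm38), the high-affinity glucose transporter GLUT3 known from neurons and the early embryo, had 289, 302, 216 and 407 FPKM in iPSC of Mbd3f/-, Gatad2a-/-, WT-1 and WT-2. In MEF of the same systems it had 33.7, 8.11, 1.74 and 8.24 FPKM. The groups do not overlap, and the change of 4.97 ± 0.60 on the log2(FPKM + 1) scale (SE, n = 4 systems; limma adjusted p = 1.8e-05) was the largest of any member. Slc2a1 (ENSMUSG00000028645, chromosome 4 at 119108711 to 119137983), the widely expressed transporter GLUT1, had 101, 229, 106 and 269.8 FPKM in iPSC, against 171, 64.4, 29.3 and 116 FPKM in MEF. It was lower in iPSC in Mbd3f/- and higher in the other 3 systems, with a log2 change of 1.02 ± 0.41 just inside the threshold (limma adjusted p = 0.0499). Without Gatad2a-/- the change of Slc2a1 was 0.38. Its call was lost under 7 of 10 alternatives, among them quantile normalization (0.69, limma adjusted p = 0.14). Of the 2 transporters' summed FPKM, Slc2a3 made up 64.6 ± 7.69% in iPSC and 9.97 ± 4.96% in MEF (SD, n = 4 systems).

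Among the enzymes that commit glucose to the pathway, 2 of 6 members rose, against 29.0% of all genes tested. Hk2 (ENSMUSG00000000628, chromosome 6 at 82725025 to 82774454), the regulated hexokinase of muscle and proliferating cells, had 46.9, 120.3, 199.8 and 109 FPKM in iPSC of Mbd3f/-, Gatad2a-/-, WT-1 and WT-2, against 16.1, 20.8, 11.4 and 18.7 FPKM in MEF. All 4 iPSC libraries lay above all 4 MEF libraries (log2 change 2.62 ± 0.33, limma adjusted p = 2.1e-05). Hk1, the housekeeping hexokinase, changed by -0.58 and did not pass (adjusted p = 0.11). Hk2 therefore made up 80.3 ± 12.7% of the hexokinase FPKM in iPSC and 34.2 ± 5.72% in MEF. Pfkp (ENSMUSG00000021196, chromosome 13 at 6579768 to 6648777, minus strand), the platelet-type phosphofructokinase, had 149, 309, 94.1 and 189 FPKM in iPSC, against 53.7, 62.9, 44.8 and 48.6 FPKM in MEF. These groups do not overlap either (log2 change 1.68 ± 0.29, limma adjusted p = 0.00026). Its liver-type and muscle-type paralogs Pfkl and Pfkm changed by -0.19 and 0.03 (adjusted p = 0.73 and 0.95), as did Gpi1, which isomerises glucose phosphate, by 0.26 (adjusted p = 0.51). Exons of Pfkp overlap those of Pitrm1 in the annotation, and the strand was not recorded. The same limit holds for 3 other members called in iPSC against MEF. Exons of Slc2a1 overlap those of Gm12868, those of Gapdh overlap Iffo1, and those of the weakly expressed Pfkfb1 overlap Apex2.

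From aldolase to pyruvate kinase, 1 of 10 members rose and 1 fell, against 29.0% and 23.9% of all genes tested. Gapdh (ENSMUSG00000057666, chromosome 6 at 125161715 to 125166467, minus strand), the dehydrogenase that makes the first NADH of the pathway, had 317, 569, 849 and 954 FPKM in iPSC, against 201, 356, 246 and 398 FPKM in MEF. It was higher in iPSC within each system, although the groups overlap (log2 change 1.09 ± 0.29, limma adjusted p = 0.0056). Under quantile normalization the change of Gapdh was 0.70 (limma adjusted p = 0.058). The Gapdh call was lost under 3 of 10 alternatives, which include leaving out Mbd3f/- or Gatad2a-/-. Eno2 (ENSMUSG00000004267, chromosome 6 at 124760053 to 124769673, minus strand), the enolase of neurons and neuroendocrine cells, had 2.38, 4.40, 1.13 and 4.26 FPKM in iPSC, against 31.1, 12.3, 27.9 and 24.6 FPKM in MEF. It was lower in every iPSC library than in any MEF library (log2 change -2.65 ± 0.41, limma adjusted p = 0.00012). The abundant members Aldoa (-0.09), Tpi1 (-0.78), Pgk1 (-0.40), Pgam1 (0.49), Eno1 (0.42) and Pkm (0.68) did not pass, with limma adjusted p of 0.82, 0.13, 0.45, 0.21, 0.35 and 0.062. Neither did the brain-type aldolase Aldoc (1.08), the muscle enolase Eno3 (0.17) or Bpgm (0.33), which makes the red-cell regulator bisphosphoglycerate, with adjusted p of 0.39, 0.70 and 0.14.

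In lactate handling, Ldhb and Slc16a1 rose and Slc16a3 fell. Ldhb (ENSMUSG00000030246, chromosome 6 at 142490249 to 142507957, minus strand), the heart-type lactate dehydrogenase, had 115, 55.6, 146 and 201 FPKM in iPSC of Mbd3f/-, Gatad2a-/-, WT-1 and WT-2, against 47.3, 20.5, 32.2 and 18.8 FPKM in MEF. Every iPSC library exceeded every MEF library (log2 change 2.04 ± 0.27, limma adjusted p = 3.2e-05), while its muscle-type partner Ldha changed by -0.33 (adjusted p = 0.55). Slc16a1 (ENSMUSG00000032902, chromosome 3 at 104638668 to 104658462), the monocarboxylate transporter MCT1, had 23.2, 33.4, 32.5 and 25 FPKM in iPSC, against 9.94, 8.54, 7.36 and 13.9 FPKM in MEF. The groups do not overlap (log2 change 1.45 ± 0.34, limma adjusted p = 0.0027). Slc16a3 (ENSMUSG00000025161, chromosome 11 at 120948480 to 120960868), the lactate exporter MCT4 of highly glycolytic cells, had 19.7, 76.2, 20.4 and 126 FPKM in iPSC, against 176, 90.4, 48.4 and 259.7 FPKM in MEF. It was lower in iPSC of each system, with overlapping groups (log2 change -1.40 ± 0.48, limma adjusted p = 0.026), and the call was lost without Mbd3f/- (-0.68, adjusted p = 0.27), without WT-1 (-1.35, adjusted p = 0.14), without WT-2 (-1.44, adjusted p = 0.13) and without the replicate block (adjusted p = 0.17).

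The kinases that regulate the pathway were lower in iPSC or did not pass, with Pfkfb1 as the exception. Pfkfb3 (ENSMUSG00000026773, chromosome 2 at 11471433 to 11554077, minus strand), the phosphofructo-2-kinase with the strongest kinase activity, had 2.57, 8.24, 2.52 and 4.63 FPKM in iPSC, against 38.1, 12.1, 4.22 and 72.5 FPKM in MEF. MEF of WT-1 overlapped the iPSC libraries, and the log2 change of -2.06 ± 0.51 (limma adjusted p = 0.0039) became -1.32 without Mbd3f/- (adjusted p = 0.16) and -1.27 without WT-2 (adjusted p = 0.10). Pfkfb4, its hypoxia-inducible paralog, had 1.47, 1.87, 1.48 and 1.17 FPKM in iPSC, against 4.34, 5.4, 3.44 and 11 FPKM in MEF (log2 change -1.39 ± 0.24, limma adjusted p = 0.00027). Pfkfb1, the liver-type paralog, had 4.89, 11.9, 6.98 and 8.17 FPKM in iPSC, against 3.57, 3.09, 2.87 and 1.62 FPKM in MEF (log2 change 1.22 ± 0.25, limma adjusted p = 0.0011). For both Pfkfb4 and Pfkfb1 the groups do not overlap, at low levels. Pdk2, a broadly expressed pyruvate dehydrogenase kinase, had 2.63, 2.91, 1.42 and 3.04 FPKM in iPSC, against 7.57, 5.56, 6.49 and 9.65 FPKM in MEF. All 4 iPSC libraries were lower than all MEF libraries (log2 change -1.25 ± 0.31, limma adjusted p = 0.0037), though adjusted p was 0.071 without WT-1 and 0.058 without WT-2. Pdk3 fell by 0.53 (adjusted p = 0.031), lost without Mbd3f/- (adjusted p = 0.11), WT-1 (0.12) or WT-2 (0.18). The hypoxia-inducible Pdk1 (0.63), the starvation-inducible Pdk4 (-1.03) and Pfkfb2 (-0.44) did not pass (adjusted p = 0.21, 0.16 and 0.12).

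Shares of paralogs within a family put these changes on a scale that does not depend on the total of a library. In 8 of 9 families the share of the paralog examined moved the same way in all 4 systems from MEF to iPSC. Most of the paralogs examined had themselves been called in iPSC against MEF: Slc2a3, Hk2, Pfkp, Eno2, Ldhb, Slc16a3 and Pfkfb3. Aldoc and Pdk1 had not. The count of families therefore partly repeats those calls, and shares in other gene families were not set beside it. Pfkp made up 66.1 ± 9.87% of the phosphofructokinase FPKM in iPSC and 36.5 ± 7.24% in MEF, and Ldhb 22.9 ± 12.5% of lactate dehydrogenase in iPSC and 4.95 ± 2.06% in MEF (SD, n = 4 systems). Slc16a3 made up 59.4 ± 20.8% of the 2 monocarboxylate transporters in iPSC, against 91.9 ± 3.79% in MEF. Pdk1 had 68.2 ± 9.23% of the pyruvate dehydrogenase kinase FPKM in iPSC and 44.6 ± 11% in MEF, although its own level did not pass the test. An exact paired permutation test over 4 systems cannot go below p = 0.13, two-sided, and gave 0.13 for these 8 families and 0.25 for Aldoc (Benjamini-Hochberg over 9 families, 0.141 and 0.25).

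**Figure D2:**
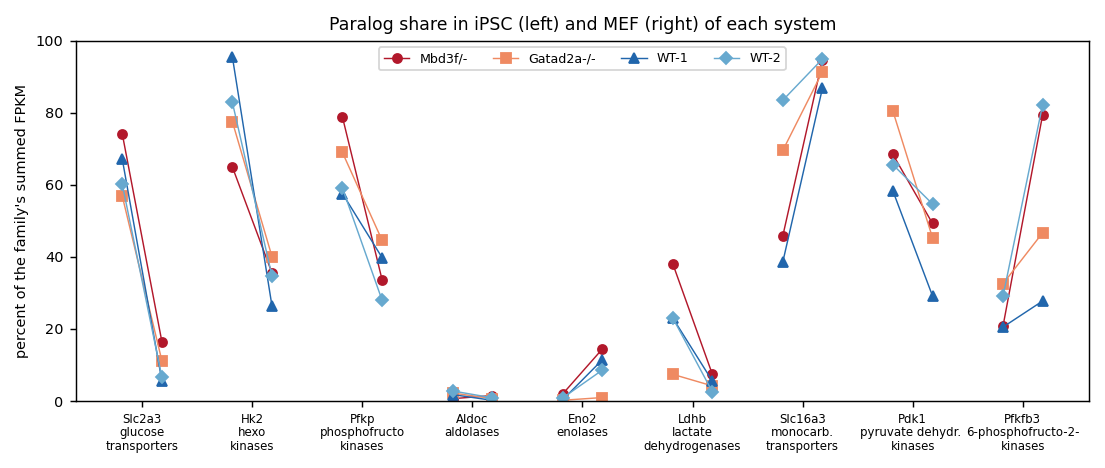
Points give the percentage of a family's summed FPKM that the named paralog takes, with iPSC at the left and MEF at the right of each pair, 1 line per system. Slc2a3 averages 64.6% in iPSC and 9.97% in MEF, and lines for Hk2, Pfkp, Ldhb and Pdk1 all run higher in iPSC.

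Neighbouring pathways were counted in the same comparison, in which 29.0% of all genes tested were higher and 23.9% lower. Of 16 tested genes among other glycolysis paralogs and gluconeogenesis, 3 were higher and 4 lower in iPSC, with the largest changes in Tigar (2.79 ± 0.38), a bisphosphatase that diverts sugar from glycolysis, and the myeloid hexokinase Hk3 (-2.35 ± 0.58). Of 8 pentose phosphate genes 3 were higher and 1 lower, led by H6pd (-2.14 ± 0.33), a dehydrogenase of the endoplasmic reticulum, and the transaldolase Taldo1 (1.37 ± 0.15). Of 10 genes of pyruvate entry into mitochondria 4 were higher and 2 lower, among them the phosphatase Pdp1 (-2.37 ± 0.28), which opposes the pyruvate dehydrogenase kinases, and the dehydrogenase subunit Pdhb (1.87 ± 0.21). Of 16 hypoxia response genes 2 were higher and 7 lower, with a median log2 change of -1.23, led by the collagen hydroxylase P4ha2 (-4.20 ± 0.37) and Adm (-4.06 ± 0.63), which encodes adrenomedullin. Of 11 regulators 5 were higher and 2 lower, including Lin28a (5.12 ± 0.48), an RNA-binding protein that blocks let-7, and Mycn (4.09 ± 0.61). Hif1a, the oxygen-regulated transcription factor, was lower in iPSC (-1.29 ± 0.28). Markers of macrophages were also lower in iPSC, for 6 of 7 genes, and their part in the members' changes was not tested.

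The daily course of the depleted systems was then followed from MEF. On days 1 to 3, 3 of 31 members were higher and 5 lower than in MEF, against 19.6% and 14.2% of the 20198 genes tested (limma). Slc16a1 had the largest rise. It stood at 62.2, 51.0 and 57.0 FPKM on days 1 to 3 of Mbd3f/-, against 9.94 FPKM in MEF, and at 43.6, 27.6 and 27.8 FPKM in Gatad2a-/-, against 8.54 FPKM in MEF (log2 change 2.10 ± 0.30, n = 2 systems; limma adjusted p = 0.00022). Hk2 followed the same early pattern with 53.0, 45.0 and 64.2 FPKM in Mbd3f/- and 45.4, 44.4 and 43.3 FPKM in Gatad2a-/-, all above the MEF values of 16.1 and 20.8 FPKM (1.37 ± 0.31, limma adjusted p = 0.0044). Pfkp rose as well (1.07 ± 0.26, adjusted p = 0.0074), while Pdk2 (-1.42), Pdk4 (-1.29), Pfkfb4 (-1.05), Eno3 (-1.02) and Hk1 (-1.01) fell. The calls of Slc16a1, Hk2 and Pfkfb4 held under all 6 alternatives that gave a test; leaving out a system gave no test here. Summed marker levels also differed over these days. Fibroblast markers summed to 141 FPKM on day 3 of Mbd3f/-, against 7662 FPKM in MEF, and to 506 FPKM in Gatad2a-/-, against 4002 FPKM. Macrophage markers summed to 48.2 FPKM on day 3 of Mbd3f/-, against 1078 FPKM in MEF, and to 34.6 FPKM in Gatad2a-/-, against 192 FPKM, where days 1 and 2 had 260.2 and 228 FPKM. Their part in the members' changes was not tested.

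On days 2 and 4, 1 and 4 members were higher and 1 and 2 lower than in MEF in the depleted systems, against 9.97% and 13.1% of all genes higher and 8.19% and 15.5% lower. On days 6 and 8, 3 and 4 members were higher and 4 and 4 lower, against 16.5% and 19.0% of genes higher and 16.1% and 15.3% lower. Slc2a3 was the member with the largest rise on day 8. It had 392 FPKM in Mbd3f/- and 427 FPKM in Gatad2a-/- on day 8, against 33.7 and 8.11 FPKM in MEF, and passed on day 4 (2.71 ± 0.86, adjusted p = 0.030), day 6 (3.38 ± 0.86, adjusted p = 0.0089) and day 8 (4.53 ± 0.86, adjusted p = 0.0014). On day 8 Pfkp (1.95 ± 0.41), Hk2 (1.48 ± 0.46) and Ldhb (1.39 ± 0.38) had risen, and Pfkfb3 (-2.60 ± 0.72), Eno3 (-1.77 ± 0.47), Pdk3 (-1.44 ± 0.27) and Pfkfb4 (-1.26 ± 0.34) had fallen (limma adjusted p between 0.0012 and 0.025). Leaving out either depleted system ended most of these calls. Without Mbd3f/- 4 members were called on day 8, and without Gatad2a-/- 3, so the counts rest on having both.

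Late steps involved few members. From days 3 and 4 to days 5 and 6, 0 members were called higher, 3 at unadjusted p under 0.05, and 2 fell: Pfkfb3 by 1.70 (limma adjusted p = 0.042) and Pdk3 by 0.88 (adjusted p = 0.018), against 1.84% of genes called lower and 2.92% higher. From days 5 and 6 to days 7 and 8, Slc2a3 (1.59 ± 0.32), Ldhb (1.33 ± 0.27) and Pdk4 (1.28 ± 0.31) rose and 0 fell, against 4.69% and 3.34% of genes (1 member fell at unadjusted p under 0.05). Ldhb had 58.6 and 83.1 FPKM on days 7 and 8 of Mbd3f/- and 60.7 and 84.4 FPKM in Gatad2a-/-, against 28.4 and 24.5 FPKM and 28.2 and 29.6 FPKM on days 5 and 6. The later values do not overlap the earlier ones in either system. In depleted systems, with days 6 and 8 set together against day 4, Pfkfb3 (-2.32 ± 0.62, adjusted p = 0.038) and Pdk3 (-0.89 ± 0.23, adjusted p = 0.033) fell and 0 members rose (2 at unadjusted p under 0.05), against 2.02% and 5.59% of genes; both calls were lost without any 1 of the 4 systems. Between days 7 and 8 and iPSC of the depleted systems, limma called 0 members (1 higher and 2 lower at unadjusted p under 0.05), against 1.09% of genes higher and 0.876% lower.

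**Figure D3:**
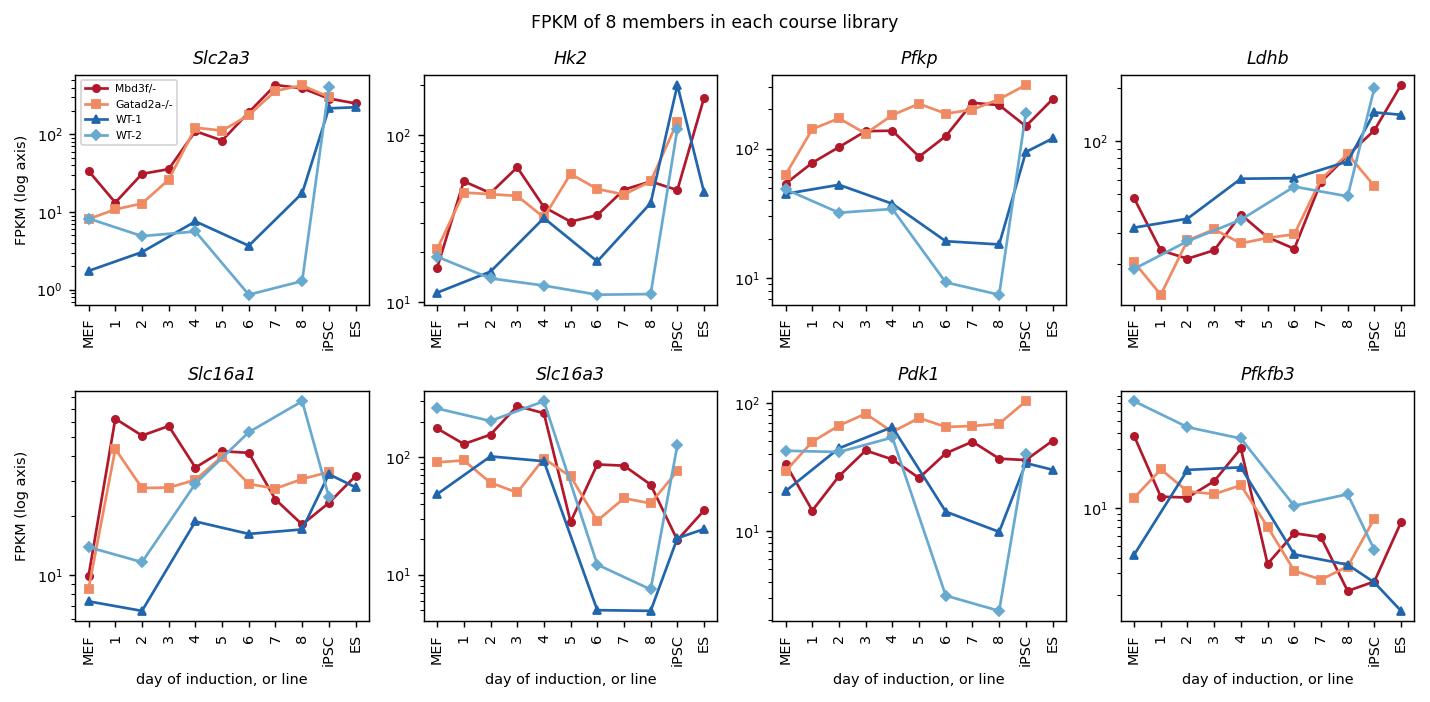
FPKM on a log axis for 8 members against the stage of each course, with 1 line per system and 1 library per point; no error is drawn because each stage of a system is a single library. Slc2a3 and Pfkp stay above MEF in both depleted systems after day 4. Pdk1 and Pfkp are lower on day 6 than on day 4 in both WT systems, and Slc16a3 is lower on day 6 than on day 4 in all 4 systems.

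In the wild-type courses, most members had lower values on day 6 than on day 4. In WT-1, 14 of 31 members had a log2(FPKM + 1) value at least 1 lower on day 6 than on day 4, against 1.65% of all genes expressed at FPKM 1 or more. In WT-2 the count was 19 of 31, against 4.40% of genes. The same 14 members met this in both systems: Slc2a1, Gpi1, Pfkl, Aldoa, Tpi1, Gapdh, Pgk1, Pgam1, Eno1, Pkm, Ldha, Slc16a3, Pdk1 and Pfkfb3, against 0.768% of genes. No member was higher by that much in either system. The median change of the members was -0.87 in WT-1 and -1.63 in WT-2, while that of all genes was -0.04 and -0.03. These are differences between single libraries and carry no test. Pluripotency markers summed to 0.565, 1.46 and 3.08 FPKM on days 4, 6 and 8 of WT-2, against 98.3, 74.3 and 318 FPKM in WT-1. In MEF of WT-2 they summed to 0.625 FPKM, so WT-2 had hardly left its MEF level by day 8. How far this bears on the members was not tested. Aldoc had 35, 45.9 and 45.2 FPKM on days 4, 6 and 8 of WT-1, against 1.73 FPKM in MEF, but 23.8, 2.37 and 1.89 FPKM on those days of WT-2, against 12.6 FPKM in MEF. The 2 WT systems thus differed in direction for this brain-type aldolase, which was singled out after its values were seen. Other members, such as Slc2a3 and Hk2, did so too. On day 8, 19 of 31 members were lower than in MEF in both WT systems and 3 were higher in both.

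The summed FPKM of the 31 members was 2152 on day 6 of WT-1, against 5482 on day 4, and 1647 on day 6 of WT-2, against 6195 on day 4. Slc16a3 had 4.98 and 4.91 FPKM on days 6 and 8 of WT-1, against 92.4 FPKM on day 4, and 12.2 and 7.48 FPKM in WT-2, against 299 FPKM. Both later values lay far below day 4 in both systems. With days 6 and 8 set against day 4, a comparison chosen after the data were seen, limma called Slc16a3 lower (-4.40 ± 0.59, n = 2 systems, adjusted p = 0.031) and 17 members at unadjusted p under 0.05. At adjusted p under 0.05, 0.00985% of all genes were called lower and 0.00492% higher. These shares are no background for the unadjusted count of members. The Slc16a3 call was lost when any 1 of the 4 systems was left out, with changes of -4.83 to -3.97. Pdk1 had 14.1 and 9.82 FPKM on days 6 and 8 of WT-1, against 64.8 FPKM on day 4, and 3.12 and 2.37 FPKM in WT-2, against 53.7 FPKM. Its change of -3.12 did not pass (adjusted p = 0.079).

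Against MEF, limma called 0 members on days 2, 4 and 6 of the wild-type courses, and 0, 2 and 14 members in total at unadjusted p under 0.05. At adjusted p under 0.05 few of all genes were called there too. These were 0.0% on day 2, 0.00492% higher and 0.00492% lower on day 4, and 0.0886% higher and 0.0689% lower on day 6. The share of all genes at unadjusted p is not given, so the unadjusted counts of members have no background here. On day 8 Slc16a3 (-4.0 ± 0.68, adjusted p = 0.020) and Pfkp (-1.90 ± 0.41, adjusted p = 0.044) were lower, and 0 members were higher, 2 at unadjusted p under 0.05. For all genes, 0.719% were lower and 0.438% higher. Pfkp had 18.3 FPKM on day 8 of WT-1 and 7.49 FPKM in WT-2, against 44.8 and 48.6 FPKM in MEF. Without WT-2 its change was -1.25 (adjusted p = 0.15), and without WT-1 the change of Slc16a3 was -4.94 (adjusted p = 0.094). Both calls were also lost without Mbd3f/- or without Gatad2a-/-, which share the estimate of spread.

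The step was seen elsewhere to a different extent. In Mbd3f/- it lay between days 4 and 5, when 13 of 30 members expressed at FPKM 1 or more were lower by at least 1 on the log2 scale, against 4.12% of genes. In Gatad2a-/- 1 of 31 did so between the same days, against 4.71% of genes. The day 5 fall in Mbd3f/- was partly undone on day 6, when 27 of 31 members were higher than on day 5. By at least 1, 5 members were higher, against 1.18% of genes. The members' median change was 0.45, against -0.01 over all genes. On day 6, 24 members were still lower than on day 4. The members' sum there was 3351, 5092 and 6104 FPKM on days 5, 6 and 7. Mbd3f/- also had an earlier fall, from MEF to day 1. In it 14 of 31 members were lower by at least 1 and 2 higher, against 18.8% and 20.5% of genes. In Gatad2a-/- these were 5 and 3 members, against 12.9% and 14.5%. Over the interval used for WT, day 4 to day 6, 8 of 31 members were lower by at least 1 in Gatad2a-/- and 5 in Mbd3f/-, against 11% and 4.57% of genes. Slc2a1, Aldoc, Pgk1, Slc16a3 and Pfkfb3 were lower by at least 1 in both, against 1.24% of genes. Slc16a3 stood at 28.1 FPKM on day 5 of Mbd3f/-, against 237 FPKM on day 4, and at 68.6 FPKM in Gatad2a-/-, against 97.2 FPKM. Of the 31 members, 10 had their highest value between MEF and day 8 on day 4 in Mbd3f/-, 7 on day 7 and 6 in MEF. In Gatad2a-/- 10 had it on day 4, 8 on day 8 and 4 in MEF. The days of the highest value were not counted over all genes, so these counts have no background. With both depleted systems in the fit, limma called 0 members from day 4 to day 5, against 0.109% of genes higher and 0.00495% lower. At unadjusted p under 0.05, 0 members were higher and 8 lower, and the share of all genes at that threshold is not given.

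**Figure D4:**
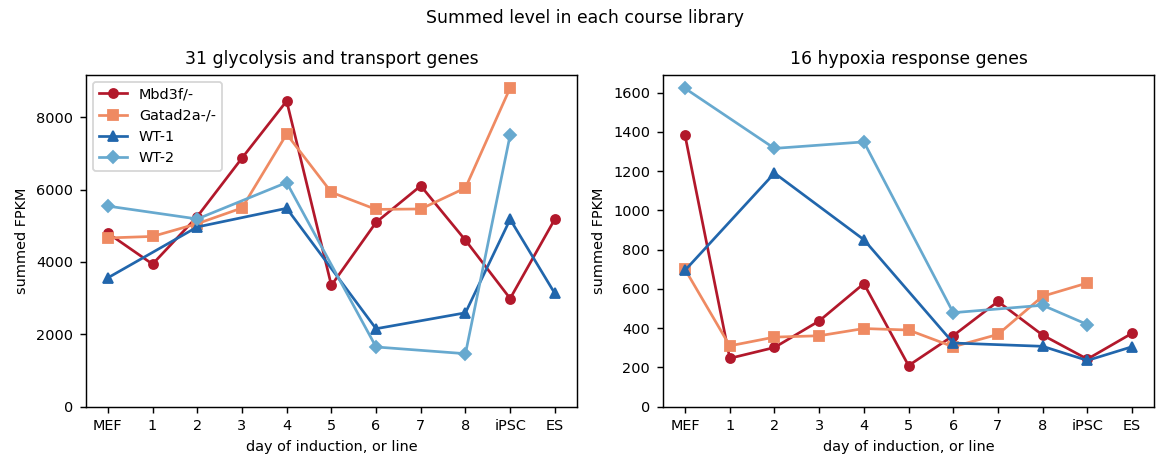
Summed FPKM of the 31 members (left) and of 16 hypoxia response genes (right) against the stage of each course, 1 point per library and 1 line per system. The members' sum is 2152 in WT-1 and 1647 in WT-2 on day 6, and 3351 in Mbd3f/- on day 5, each below day 4, and the hypoxia sum is lower at the same steps.

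The summed level of hypoxia response genes was lower at the same steps in WT-1, WT-2 and Mbd3f/-. Their summed FPKM was 324 on day 6 of WT-1, against 850.3 on day 4, 478 on day 6 of WT-2, against 1348 on day 4, and 209 on day 5 of Mbd3f/-, against 626 on day 4. In Gatad2a-/- it was 389.8 on day 5 and 305 on day 6, against 397 on day 4. On day 6, 10 of 16 were lower than on day 4 by at least 1 on the log2 scale in WT-1 and 12 of 16 in WT-2, and 9 of the 14 with an FPKM of at least 1 were on day 5 of Mbd3f/-. In Gatad2a-/- 1 of 14 was on day 5 and 6 of 14 were on day 6. Against MEF, 12 of 16 were lower by at least 1 on day 1 of Mbd3f/- and 7 of 16 on day 1 of Gatad2a-/-. None of the 16 was listed at 0 in any library. Bnip3, a mitophagy receptor and known target of low oxygen, had 11.4 FPKM on day 6 of WT-1, against 99.3 FPKM on day 4, and 11.6 FPKM in WT-2, against 147 FPKM. Hif1a itself had 50.2 FPKM on day 6 of WT-1, against 51.9 FPKM on day 4, and 148 FPKM in WT-2, against 134 FPKM. The part of the hypoxia response, the medium and the feeder layer in the step was not tested. Macrophage markers summed to 8041 FPKM on day 6 of WT-2, against 3984 FPKM on day 4, and to 16.3 and 7.12 FPKM on the same days of WT-1. Their part in the step was not tested.

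The 250 bases before each RefSeq transcription start and the 50 after it were searched for letters known from hypoxia and Myc binding. Windows were held for 30 of 31 members (49 windows, GRCm38.p6); Slc2a3 had none. ACGTG or GCGTG is the core of the hypoxia response element, and CACGTG is the E-box bound by Myc and others; each was sought on both strands, and CACGTG holds ACGTG within it. ACGTG was found in 17 of 30 members (56.7%), against 21.8% of 27025 genes with a window. GCGTG was found in 20 members (66.7%), against 35.2% of genes, and CACGTG in 6 members, against 8.09% of genes. CACGTG occurred in Ldha, Pdk2, Pfkfb2, Pfkfb3, Pfkm and Slc16a1. A gene can have more than 1 window, and base composition was not adjusted for. A match is not a binding site.

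Stretches of 60 bases from 7 promoters are shown, RefSeq sequence of GRCm38.p6, 5′ to 3′ on the strand of the gene, with the motif found in capitals. They were chosen from members that were lower on day 6 of both WT systems or differed between depleted and WT systems, with Slc16a1 as a transporter that did neither. Each stretch was picked because it holds its motif, so finding the motif there is no result. Gpi1 and Tpi1, also lower on day 6 of both WT systems, held none of the motifs searched. Capitals mark ACGTG or its complement CACGT in Slc16a3 (chr11:120949007-120949066, plus strand), Slc2a1 (chr4:119108684-119108743, plus strand) and Pgk1 (chrX:106186944-106187003, plus strand). They mark CACGTG in Ldha (chr7:46845731-46845790, plus strand) and Slc16a1 (chr3:104638439-104638498, plus strand), and GCGTG in Pfkp (chr13:6648772-6648831, minus strand) and Pdk1 (chr2:71873121-71873180, plus strand).
Slc16a3: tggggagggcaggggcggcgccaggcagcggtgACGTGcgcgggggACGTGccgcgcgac
Slc2a1: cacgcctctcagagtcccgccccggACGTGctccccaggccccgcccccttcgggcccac
Pgk1: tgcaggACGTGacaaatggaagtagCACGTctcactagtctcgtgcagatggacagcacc
Ldha: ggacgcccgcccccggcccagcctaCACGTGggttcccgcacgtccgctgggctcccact
Slc16a1: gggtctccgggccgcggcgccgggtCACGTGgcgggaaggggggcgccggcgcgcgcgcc
Pfkp: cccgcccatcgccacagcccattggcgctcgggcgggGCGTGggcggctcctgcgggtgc
Pdk1: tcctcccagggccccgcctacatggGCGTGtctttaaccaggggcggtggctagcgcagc
The stretches of Slc16a3 and Pgk1 each hold 2 copies of ACGTG, counting both strands, and the other 5 hold 1 copy of the motif marked. The nearest copy in Slc16a3 lies 14 bases before the RefSeq start. The part of these motifs in the members' changes was not tested.

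Whether the depleted and WT systems changed differently from their own MEF was tested as a difference of changes. On day 8, 3 of 31 members had changed more upward in depleted than in WT systems and 0 more downward, 1 at unadjusted p under 0.05 (limma). Of all 20305 genes, 8.4% differed upward and 7.73% downward. The members' share lay near the background. Their median difference was 1.06 on the log2 scale, against 0.24 over all genes. On day 6, 3 differed upward and 1 downward, against 4.46% and 7.69% of genes, with a median of 0.83, against 0.09 over all genes.

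Pfkp showed the difference most clearly. On day 8 it had 216 and 240.2 FPKM in Mbd3f/- and Gatad2a-/-, against 18.3 and 7.49 FPKM in WT-1 and WT-2, from MEF levels of 53.7, 62.9, 44.8 and 48.6 FPKM. It was above its MEF level in both depleted systems and under it in both WT systems, and the difference of changes was 3.85 ± 0.57 (n = 2 systems each; limma adjusted p = 0.00084). On day 6 the difference of Pfkp was 3.09 ± 0.57 (adjusted p = 0.0040). The day 8 call held under all 10 alternatives, while the day 6 call was lost without Mbd3f/- (3.27, adjusted p = 0.068) or without Gatad2a-/- (2.92, adjusted p = 0.078).

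Slc2a3 had 392 and 427 FPKM on day 8 of Mbd3f/- and Gatad2a-/-, against 17.4 and 1.29 FPKM in WT-1 and WT-2. All depleted values exceeded all WT values, with a difference of changes of 4.16 ± 1.21 on day 8 (limma adjusted p = 0.034) and 4.15 ± 1.21 on day 6 (adjusted p = 0.041). Without WT-2, where Slc2a3 fell to 1.29 FPKM, against 8.24 FPKM in MEF, the day 8 difference was 1.78 (adjusted p = 0.31) and the day 6 difference 2.61 (adjusted p = 0.16). In WT-1 Slc2a3 was higher on day 8 than in MEF, at 17.4 and 1.74 FPKM. Without Mbd3f/- the day 8 difference was 5.19 (adjusted p = 0.13), and without Gatad2a-/- 3.13 (adjusted p = 0.28).

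Pdk1, a kinase that holds back the mitochondrial oxidation of pyruvate, had 36.7 and 68.8 FPKM on day 8 of Mbd3f/- and Gatad2a-/-, against 9.82 and 2.37 FPKM in WT-1 and WT-2. MEF levels were 33.4, 29.3, 20.4 and 42.3 FPKM, so both depleted systems were at or above MEF and both WT systems were below it (difference 3.00 ± 0.81, limma adjusted p = 0.024). The difference was 2.64 ± 0.81 on day 6 (adjusted p = 0.0497). From day 4 to days 6 and 8 it was 3.25 ± 0.70 (adjusted p = 0.035), where 1 member was called upward and 0 downward (0 at unadjusted p under 0.05), against 1.59% and 0.315% of genes. Without WT-2 the day 8 difference of Pdk1 was 1.66 (adjusted p = 0.19), the day 6 difference 1.20 (adjusted p = 0.39) and the later step 2.49 (adjusted p = 0.24). Without Mbd3f/- these were 3.54 (adjusted p = 0.12), 3.07 (0.18) and 3.29 (0.14), and without Gatad2a-/- 2.47 (0.21), 2.22 (0.26) and 3.21 (0.13). Pdk3, its paralog, differed downward on day 6 (-1.43 ± 0.38, adjusted p = 0.027). It had 8.33 and 7.65 FPKM on day 6 of Mbd3f/- and Gatad2a-/-, against 27.2 and 18.5 FPKM in WT-1 and WT-2, and the call was lost without Gatad2a-/- (adjusted p = 0.093), WT-1 (0.18) or WT-2 (0.15).

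On days 2 and 4 and in iPSC, limma called 0 members for a difference of changes. At unadjusted p under 0.05 there were 2 upward and 1 downward on day 2, 1 and 2 on day 4, and 0 and 2 in iPSC. Of all genes, 0.557%, 1.12% and 0.167% differed upward and 1.87%, 5.33% and 0.143% downward at these stages. From day 8 to iPSC, 12 members were higher by at least 1 on the log2 scale in both WT systems, among them Slc2a3, Hk2, Pfkp and Pdk1, against 11.7% of genes, and 0 did in both depleted systems, against 0.749%. Over the same days the fibroblast markers summed to 40.2 and 173 FPKM on day 8 of Mbd3f/- and Gatad2a-/-, against 4851 and 10866 FPKM in WT-1 and WT-2. Pluripotency markers summed to 5150 and 3377 FPKM on day 8 of Mbd3f/- and Gatad2a-/-, against 318 and 3.08 FPKM in WT-1 and WT-2. The members' differences cannot be told apart from the differing fibroblast content and pluripotency marker levels.

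ES cells were compared with iPSC in the 2 systems listed with both. The ES cells listed with WT-1 are the line V6.5, so they are not paired with WT-1 iPSC by cell line. Limma called 0 members and 0.0% of 20410 genes, with 0 members at unadjusted p under 0.05 in either direction. Hk2 had 168 FPKM in ES and 46.9 FPKM in iPSC of Mbd3f/-, but 45.5 FPKM in ES and 199.8 FPKM in iPSC of WT-1. The 2 lines thus went opposite ways. Slc2a3 had 250.2 and 223 FPKM in ES of Mbd3f/- and WT-1, against 289 and 216 FPKM in iPSC.

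The Myc libraries asked what the induced or endogenous Myc adds. Per the labels, 3 libraries of an Mbd3f/- line on day 4 carried Oct4, Sox2 and Klf4 (OSK) with Myc, Myc alone or OSK alone. The other 6 came from Mbd3f/- MEF with an inducible OSK cassette and no Myc transgene: siRNA against c-Myc, n-Myc and l-Myc on days 3 and 7, a Myc inhibitor on day 3, scrambled siRNA on day 7, and scrambled siRNA in 2 MEF libraries. Each arm other than the MEF control is 1 library, so there is no test, and a difference of at least 1 in log2(FPKM + 1) is counted with an FPKM of at least 1 in either library. The 2 control MEF libraries themselves differed by at least 1 for 2.6% of genes and for 1 member, Pfkfb3, with 17.4 and 37.6 FPKM.

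In the day 4 libraries Myc did not follow the labels by its listed FPKM. It had 3.16 FPKM in the library labelled OSK and Myc and 0.510 FPKM in the one labelled Myc alone, against 24.8 FPKM in the one labelled OSK alone. It had 11 FPKM in the library labelled siMyc day 7, against 16.2 FPKM with scrambled siRNA, and 29.2 FPKM in that labelled siMyc day 3 and 29.4 FPKM with the inhibitor, against 30.5 and 26.5 FPKM in control MEF. Whether the listed Myc FPKM counts transgene RNA was not tested. The pluripotency markers summed to 326 FPKM in the library labelled OSK and Myc and to 2.93 FPKM in that labelled Myc alone, against 129 FPKM in that labelled OSK alone. Their sum was thus lowest in the library labelled without OSK, as its label has it. Directions below hold for the labels only.

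In the library labelled OSK and Myc, 6 of 30 members were higher and 4 lower than in that labelled OSK alone, against 12.0% and 19.4% of genes. Slc16a3 had 317 FPKM, against 47.2 FPKM in the library labelled OSK alone (difference 2.72), Slc16a1 had 43.9, against 13.4 FPKM (1.64), and Pdk1 had 86.0, against 28.4 FPKM (1.56). Both lactate transporters were thus higher. Aldoc had 8.40 FPKM, against 23.7 FPKM (-1.39), and Slc2a3 had 16.9, against 44.8 FPKM (-1.36). Pfkl, Aldoa and Pfkfb3 were also higher (1.05, 1.17 and 1.05) and Hk2 and Pdk2 lower (-1.32 and -1.05). The library labelled OSK and Myc differed from that labelled Myc alone by at least 1 for 0 of 31 members, against 10.4% of genes higher and 4.75% lower.

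In the library labelled siMyc day 7, 1 of 31 members was higher and 5 were lower than with scrambled siRNA on day 7, against 3.87% and 4.87% of genes. The 5 were Pfkfb3 with 9.86 FPKM, against 36.6 FPKM (-1.79), Pdk1 with 13.7, against 46.4 FPKM (-1.69), Aldoc with 13.3, against 44.3 FPKM (-1.66), Slc16a3 with 92.7, against 255 FPKM (-1.45), and Slc2a3 with 8.60, against 19.8 FPKM (-1.11). Pdk4, the starvation-inducible kinase, was higher at 5.22 FPKM, against 1.42 FPKM (1.36). Of the 31 members, 25 were lower to some degree, with a median of -0.36, against 7255 of 15365 genes and a median of 0.03. Fibroblast markers summed to 1760.1 FPKM in the library labelled siMyc day 7, against 5518 FPKM with scrambled siRNA, and hypoxia response genes to 726 FPKM, against 1128 FPKM. Their part in these differences was not tested.

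In the library labelled siMyc day 3, 1 of 31 members was higher and 9 lower than the mean of the control MEF, against 5.26% and 9.3% of genes. Day and siRNA differ together here. Pdk1 had 7.57 FPKM, against 90.5 and 95.9 FPKM in control MEF (-3.46), and Aldoc had 5.55, against 60.6 and 46.0 FPKM (-3.04). Both lay far outside the 2 controls. Pfkfb3 (-1.78), Slc2a3 (-1.69) and Slc16a3 (-1.66) followed, and the other 4 were Tpi1, Eno2, Pfkl and Pgk1. Eno3 was higher (1.10). With the inhibitor on day 3, Pdk4 had 17.9 FPKM, against 1.84 and 2.23 FPKM in control MEF (2.64), Eno3 had 6.92, against 35.1 and 42.9 FPKM (-2.33), and Tpi1 had 508, against 1016 and 1071 FPKM (-1.04). That is 1 member higher and 2 lower, against 11.7% and 10.9% of genes.

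The libraries labelled siMyc and Myc inhibitor differed in several members on day 3, with Myc RNA at 29.2 and 29.4 FPKM. Set against the inhibitor, the library labelled siMyc day 3 had 2 members higher and 8 lower, against 12.3% and 19.3% of genes. Pdk1 had 7.57 FPKM, against 59.1 FPKM with the inhibitor (-2.81), Pdk4 had 1.49, against 17.9 FPKM (-2.92), and Eno3 had 84.2, against 6.92 FPKM (3.43). Aldoc (-2.28) and Eno2 (-2.07) were the next largest. Scrambled siRNA on day 7 differed from control MEF in 0 members higher and 3 lower, Eno3 (-1.88), Pdk3 (-1.02) and Pgk1 (-1.01), against 8.1% and 6.03% of genes. Skeletal muscle markers summed to 215 FPKM in the library labelled siMyc day 3, against 80.5 and 81.0 FPKM in control MEF, and hypoxia response genes to 497 FPKM, against 1481 and 1805 FPKM. Their part in these differences was not tested.

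**Figure D5:**
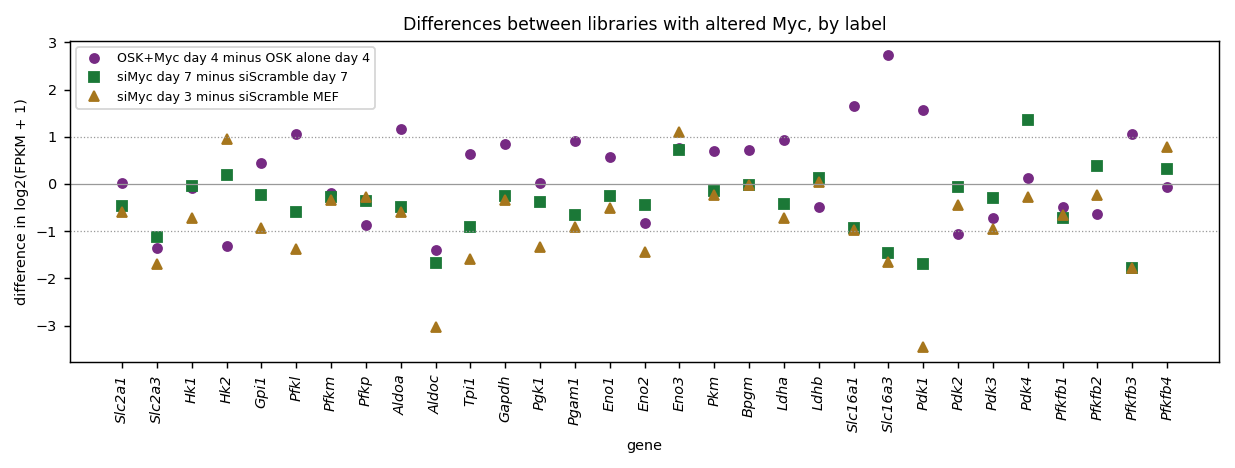
Differences in log2(FPKM + 1) between single libraries for each of the 31 members on the x axis, named by their labels; dotted lines mark a difference of 1 in either direction. Slc16a3 and Pdk1 lie at 2.72 and 1.56 in the comparison labelled OSK and Myc against OSK, and at -1.45 and -1.69 in siMyc against scrambled siRNA on day 7.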

How the data were processed

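The values are FPKM per gene as deposited by the authors, in 1 table for each of the 4 course systems and 1 for the 9 Myc libraries. Per the submitters' processing notes, CASAVA 1.8.2, TopHat2 2.0.10, Cufflinks 2.2.1 and mm10 were used. The RNA kit named in the labels does not mark strand; no annotation release was named. A 0 may be a failed estimate, since all 37 mitochondrial genes are listed at 0. Tables were normalized separately, so tests are on changes within a table and on differences between such changes. Columns left without a sample numbered 0.

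Genes reaching an FPKM of 1 in 2 or more libraries entered the fit, and log2(FPKM + 1) was tested with limma 3.58.1 in R 4.3.3 (eBayes with trend and robust options, Benjamini-Hochberg over all genes, threshold 0.05), with class and stage as means and the system as a block. On this scale the change of a weakly expressed gene is understated. The fits used 24, 20 and 26 libraries (shared stages, daily depleted course, ES); the code was tested on simulated data. Stages of a system other than ES come from the same cell line, so the system pairs those samples. The V6.5 ES library was placed in the WT-1 block because it is listed there. The spread behind each p-value may be technical. Counts at unadjusted p under 0.05 are given for members only. The shares of genes beside them are at adjusted p under 0.05 and are no background for those counts.

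All 31 members are accounted for. Values per library are given for members called with a log2 change of at least 1 in iPSC against MEF or called in a difference of changes, and for the 5 largest differences of each Myc comparison. From other lists the 2 called genes with the largest change in iPSC against MEF are named, with Myc, Mycn, Hif1a, Mbd3 and Gatad2a. Bnip3 was chosen after its values were seen. Members and lists were chosen with earlier results of these data known. Gene positions are from the GENCODE annotation of GRCm38.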

Additional observations from a re-analysis of the deposited data

Results flagged for a closer look

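Of the 31 members, 4 changed differently from MEF in depleted and in WT systems by a test of the difference itself (limma on log2(FPKM + 1), 2 systems each). Slc2a3 differed by 4.16 on day 8 and 4.15 on day 6, and Pfkp by 3.85 on day 8 and 3.09 on day 6. Pdk1 differed by 3.00 on day 8, by 2.64 on day 6 and by 3.25 from day 4 to days 6 and 8. Pdk3 differed by -1.43 on day 6. The Pfkp difference on day 8 passed under all 10 alternatives, and the other 7 did not pass under at least 1.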

How the results depend on the processing

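No call changed sign under any alternative. Of 63 calls in 14 comparisons, 14 passed under every alternative that gave a test, 8 of them in iPSC against MEF (Slc2a3, Hk2, Pfkp, Ldhb, Slc16a1, Pfkfb1, Eno2 and Pfkfb4). Stages of a system other than ES share a cell line, so the system is the replicate block. Without the replicate block, the members called against MEF in depleted systems numbered 0 for day 2 (2 with it), 0 for day 4 (6), 2 for day 6 (7), 3 for day 8 (8) and 3 for days 1 to 3 (8), and 0 in WT for day 8 (2). The later steps gave 0 for days 5 and 6 against days 3 and 4 (2), 0 for days 7 and 8 against days 5 and 6 (3), and 0 for days 6 and 8 against day 4 in depleted (2) and WT systems (1) and in their difference (1). The difference of changes gave 1 on day 6 (4) and 1 on day 8 (3). With no filter on low values, counts were 1 for depleted day 2, 1 for WT day 8, 2 for the day 6 difference, 0 for WT days 6 and 8 against day 4, 1 for the same step in depleted systems, 0 for their difference, and 1 for days 5 and 6. Quantile normalization gave 1 for WT day 6 (0), 5 for the day 8 difference, 5 for WT days 6 and 8 against day 4, and 2 for the library labelled OSK and Myc against Myc alone (0). A pseudocount of 0.1 gave 1 for depleted day 2, 2 for that last Myc comparison and 5 for scrambled siRNA day 7 against MEF (3). The causes were not tested.

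Leaving out 1 system at a time gave 10 to 13 members called in iPSC against MEF (14 with all), and in depleted systems 0 to 4 for day 2, 0 to 7 for day 4, 2 to 7 for day 6 and 3 to 9 for day 8. WT systems gave 0 to 2 on day 6, 0 to 2 on day 8 and 0 to 3 for days 6 and 8 against day 4, a step that gave 0 to 1 in depleted systems and 0 to 1 in their difference. The difference of changes gave 0 to 1 for days 2 and 4 and for iPSC, and 1 to 4 for days 6 and 8. A lone system of a class is then assumed to vary like the others. The daily course has no such count, since a single system leaves no residual degrees of freedom. Comparisons of days 4 and 5 and of days 6 and 8 with day 4, and the adding of copies, were chosen after the data were seen. Depth is unknown and limits what low members such as Pfkfb4 can show.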
